A study of Mus musculus with 6 samples.

Results

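T and NK lymphocytes were 65 of 66018 kept cell barcodes (0.0985%) in a single-cell RNA sequencing study of the back of the mouse eye. The study compared a relaxed with a working ciliary muscle in work on the onset of myopia. In the tropicamide group, the eyes of 12 mice received 6 drops of tropicamide, a muscarinic acetylcholine receptor antagonist, at 10 min intervals, and tissue was taken after a wait of 1 h. In the saline group, 12 mice received saline at the same interval, and for these the number of drops and the wait are not stated. Right eyes were pooled by 4 into 3 libraries per group and held sclera, choroid and retina without cornea, lens, iris and ciliary body. The labels name no strain, age or sex, and the pool of eyes is the replicate throughout.

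A barcode was taken as a T or NK lymphocyte when it had UMIs (molecular barcodes that count each captured transcript once) of at least 2 of 8 genes, with at least 3 such UMIs together. The 8 genes were Cd3d, Cd3e, Cd3g, Trac, Trbc2, Nkg7, Il7r and Gzma. The barcode also had no UMI of the B cell gene Cd79a, at most 1 UMI of the macrophage genes C1qa, C1qb and C1qc together, and at most 3 UMIs of the fibroblast gene Dcn. The members were thus chosen by measured counts of these 13 genes, so their levels against other cells are descriptions and were not tested.

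T cells recognise antigen through a receptor of paired alpha and beta or gamma and delta chains, which signals through the CD3 chains. Natural killer (NK) cells lack this receptor, carry activating and inhibitory surface receptors, and kill through granules of perforin and granzymes. In the eye, such cells are found mainly in the choroid and sclera, while the healthy neural retina is largely shielded from them by the blood-retinal barrier. Gamma delta T cells that use the segments Vgamma6 and Vdelta1 are known as producers of interleukin 17 that settle in barrier and connective tissues.

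The germline ends of those 2 segments are shown because 16 of the 21 members of the largest class described below had a UMI of either. Both are the last 120 coding bases of exon 2 in GENCODE M21, on the plus strand of GRCm38, whereas the deposited counts used GRCm39. Capitals mark the codon of the conserved cysteine after which the variable joint begins.
Trdv4 (Vdelta1), chr14:54075396-54075515: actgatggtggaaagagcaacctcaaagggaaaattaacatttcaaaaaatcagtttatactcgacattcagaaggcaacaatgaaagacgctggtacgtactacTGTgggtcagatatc
Trgv6 (Vgamma6), chr13:19190810-19190929: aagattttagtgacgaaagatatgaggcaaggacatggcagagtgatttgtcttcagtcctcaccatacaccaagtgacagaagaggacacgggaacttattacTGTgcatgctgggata
The germline Trdv4 segment runs on for 12 bases after this codon and Trgv6 for 13, and the bases trimmed or added where it is joined to the next segment are not in the reference.

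The members held 379599 UMIs, with a median of 5656 UMIs (1133 to 14061) and 2129 genes per member, against a median of 2352 UMIs over all kept barcodes. Mitochondrial UMIs made up a median of 2.23% of a member and at most 5.93%. The UMIs of the 8 selecting genes summed to a median of 27 per member, from 4 to 143. Just inside the rule lay 3 members with 4 such UMIs. Just outside lay 2 barcodes with 2 of the genes but only 2 UMIs, 4 with at least 3 UMIs of 1 gene alone, and 2 removed by the limits on other cell types, 1 through Cd79a and 1 through Dcn. No member barcode occurred in another library, while 517 pairs of kept barcodes were shared between libraries.

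The label was checked against markers of other cells. Among macrophage genes that the rule did not use, Csf1r, Adgre1, Aif1, Lyz2, Mrc1 and Fcgr1 were at 0 in all 65 members. Cx3cr1, Cd68 and Ctss were detected. Of 12 macrophage genes, 4 were detected, with 25 UMIs. The list was at 0.582 to 1.09 UMIs per 10000 with tropicamide and 0.394 to 0.761 with saline, against 1.26 in other barcodes. The B cell genes Cd79b, Ms4a1 and Igkc, 6 of 6 neutrophil genes and 4 of 4 platelet genes were at 0 as well. In all, 2 of 7 B cell genes were detected with 6 UMIs, and 5 of 9 dendritic cell genes with 9 UMIs. RNA of rods was present at a low level. The 12 rod genes made up a median of 0.201% of the UMIs of a member, and at most 1.48%. In the pools, this share was 20.7 to 37.4 UMIs per 10000 member UMIs with tropicamide and 18.5 to 77.9 with saline. T cell genes were also found outside the members, and for the selecting genes the rule itself sets much of the split. The 65953 other barcodes held 24 UMIs of Cd3d against 190 in the members, 91 of Il7r against 219, and 101 of Trac against 78. Among genes not used to select, 97.0% of all UMIs of Il17a, which encodes interleukin 17A, lay in the members. Most UMIs of Lck, a kinase of T cell receptor signalling, and of the adhesion receptor gene Cd2 lay outside, with 317 against 40 and 82 against 61. The 6 fibroblast genes were at 1.45 to 3.95 UMIs per 10000 with tropicamide and 0.394 to 2.50 with saline, against 101.5 in other barcodes. The 6 endothelial genes were at 1.09 to 7.98 and 1.18 to 1.88, against 6.24. Of 4 Schwann cell genes 1 was detected, Mbp. That list was at 0.726 to 1.12 with tropicamide and 0.979 to 3.44 with saline, above the 0.458 of other barcodes. A single member of tropicamide pool 2 held 86 UMIs of 5 endothelial genes and was kept under the rule.

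Every T cell receptor and CD3 gene was detected. Cd3g had UMIs in 52 members, Trbc2 in 56, Cd3d in 48, Cd3e in 45 and Trac in 35. In all, 55 members had a UMI of a CD3 chain and 10 had none. UMIs of Trbc1 and Trbc2, near-identical constant segments of the beta chain, occurred together in 31 members, so that the split of reads between the 2 genes is uncertain. Ptprc, which encodes the leukocyte surface protein CD45, was seen in 60 members.

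**Figure D1:**
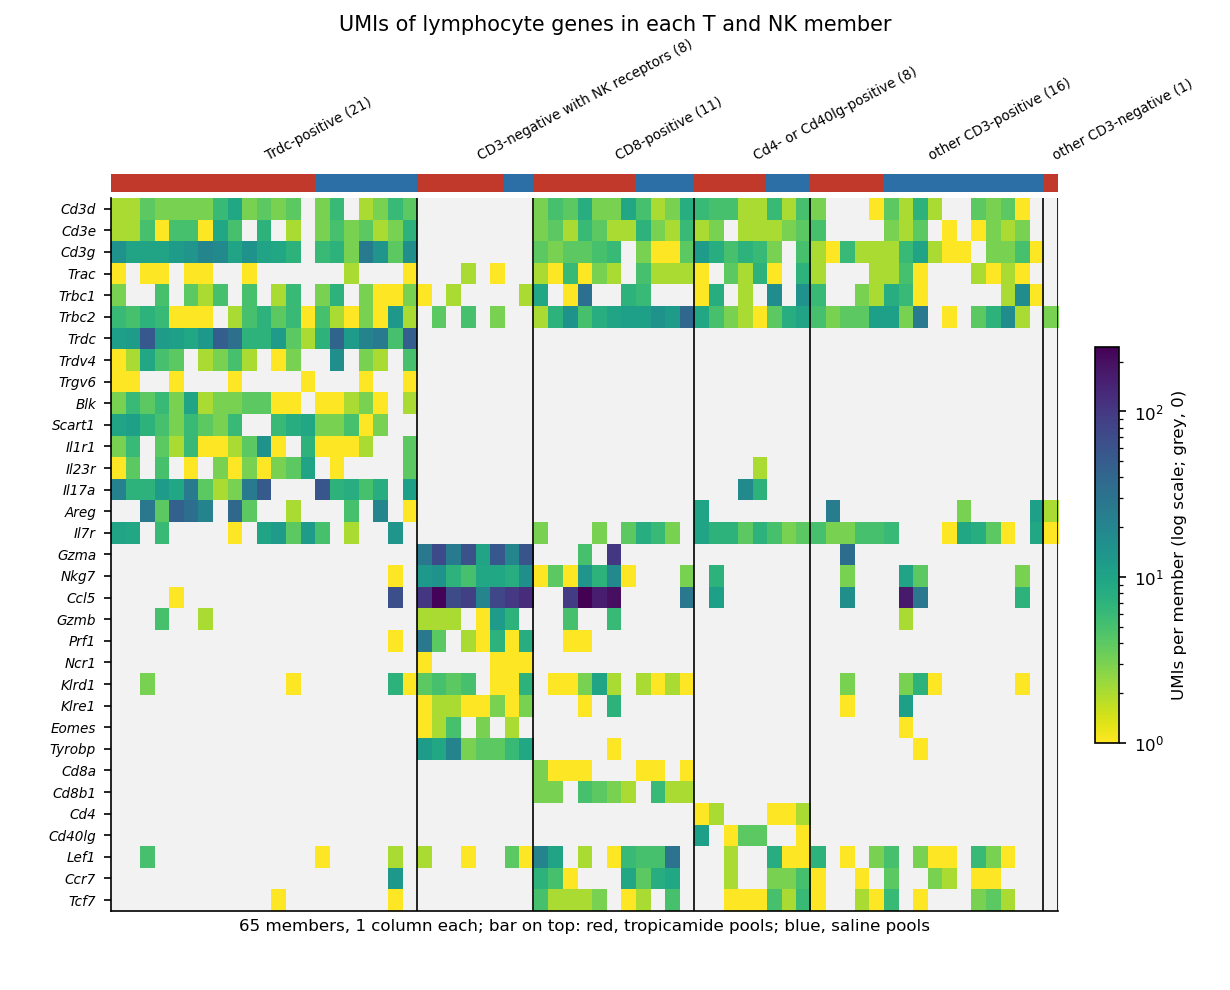
UMIs of 33 genes (rows) in each of the 65 members (columns), on a log colour scale with grey for 0, with members ordered by class. Of the 21 members with a Trdc UMI, 19 have Blk, 17 each have Scart1, Il1r1 and Il17a, and none has Gzma, and the 8 CD3-negative members with NK receptors carry Gzma, Ccl5 and Tyrobp.

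The members were divided by receptor genes for description, and these classes were set after values were seen. The largest class had 21 members with a UMI of Trdc, the constant segment of the delta chain, at 2 to 54 UMIs each and a median of 12. Of these, 2 came from tropicamide pool 1, 12 from pool 2 and 0 from pool 3, and 0, 3 and 4 came from saline pools 1, 2 and 3. The class was therefore absent from 1 pool of each group.

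Most Trdc-positive members also had genes known from gamma delta T cells that make interleukin 17. Trdv4 was found in 15 of the 21 with 63 UMIs, and in 0 of the 44 other members. Trgv6 gave 7 UMIs in 7 of the 21 and 0 in the others. Together, 16 of the 21 had a UMI of Trdv4 or Trgv6. Among the other gamma segments examined, Trgv2 gave 9 of its 11 UMIs in Trdc-positive members and Trgv1 1 UMI, while Trgv4, Trgv5 and Trgv7 were at 0. Short of full-length receptor sequences, these counts name the segment and not the joint. Which end of the transcripts the libraries captured is not stated, and this bears on counts of such segments. Genes of the alpha and beta chains were present too. Trbc2 was found in 20 of the 21 and in 36 of the 44 others, Trbc1 in 14 and 22, and Trac in 8 and 27.

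Il17a was found in 17 of the 21 Trdc-positive members with 266 UMIs, or 21.1 per 10000 of their UMIs, and in 2 of the 44 others with 25 UMIs, or 0.986 per 10000. Both of those others carried Cd40lg, the CD40 ligand of helper T cells. The sister cytokine gene Il17f gave 8 UMIs in 2 members. The receptors that drive this cytokine lay on the same side. Il1r1, the interleukin 1 receptor, had 61 UMIs in 17 Trdc-positive members and 0 elsewhere, and Il23r, the interleukin 23 receptor, had 41 of its 43 UMIs there. Scart1, a scavenger receptor of gamma delta T cells, gave 93 UMIs in 17 of the 21 and 0 in the others. Blk, a kinase of the Src family, gave 60 UMIs in 19 of the 21 and 0 in the others. The transcription factor genes Sox13, Maf and Zbtb16 were found in 6, 10 and 16 of the 21, against 0, 4 and 7 of the 44.

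Areg, which encodes the growth factor amphiregulin, had 202 of its 252 UMIs in 11 Trdc-positive members, and Icos, a co-stimulatory receptor, had 128 of 192 in 18. Cxcr6, a chemokine receptor of resident lymphocytes, had 66 of 99 UMIs in 18 of them. For Areg this split rests on tropicamide pool 2, which held 176 of the 202 UMIs, and without it Areg gave 26 UMIs in Trdc-positive and 26 in the other members. Without that pool, Icos gave 36 UMIs in the 9 remaining Trdc-positive members and 30 in the 33 others, and Cxcr6 35 and 20. Igf1r, the receptor of insulin-like growth factor 1, was at 13.9 UMIs per 10000 in Trdc-positive and 0.355 in the other members. Ece1, the endothelin-converting enzyme, was at 8.96 and 0.158. Tropicamide pool 2 held 128 of the Igf1r UMIs and 90 of the Ece1 UMIs of the Trdc-positive members. Without that pool, Igf1r gave 47 UMIs in Trdc-positive and 6 in the other members, and Ece1 23 and 4. On the other side, Gzma (472 UMIs), Ccl4 (81) and Tyrobp (70) were at 0 in all 21, and Cd28, a co-stimulatory receptor, was at 0.714 per 10000 against 7.14. Median depth was 5002 UMIs in the 21 and 5839 in the 44. Flt1 was also higher in the Trdc-positive members, with 44 UMIs in 2 of them, among which is the member with endothelial UMIs.

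A class of 8 members had no CD3 or Trdc UMI and a UMI of an NK receptor. A ninth CD3-negative member with NK receptor UMIs, in tropicamide pool 2, had 2 Trdc UMIs and no Gzma and was placed in the Trdc-positive class. Of these, 3 lay in tropicamide pool 1, 3 in pool 2 and 0 in pool 3, and 2 lay in saline pool 3. All 8 had Gzma, which encodes granzyme A, with 10 to 72 UMIs each. Gzma and Nkg7 are selecting genes, and a barcode without CD3 UMIs enters mainly through them, so their presence here follows largely from the rule. All 8 had Ccl5, which encodes a chemokine that attracts lymphocytes, at 214 per 10000. The perforin gene Prf1 was found in 7 of them with 50 of its 53 UMIs, and the NK receptor gene Klrb1c in 8 with 20 of 23. All 4 UMIs of Ncr1, which encodes the activating receptor NKp46, lay in 4 of these members. Other NK receptor genes were shared with the remaining members, as Klrd1 had 27 of 77 UMIs in the 8, Klrk1 23 of 82, Klre1 14 of 34 and Klrc1 15 of 44. Eomes, a transcription factor of NK cells, had 13 of 14 UMIs in 5. The signalling adaptors Tyrobp and Fcer1g had 68 of 70 and 66 of 76 UMIs there. Trbc2 had 12 UMIs in 3 of the 8.

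CD8-positive members (Cd8a or Cd8b1, the co-receptor of cytotoxic T cells) numbered 11, none of which had a Trdc, Cd4 or Cd40lg UMI. Ccl5 was present in 5 of them, with 727 of its 1831 UMIs. Genes of naive and recirculating T cells were found mainly in the 6 members of this class without Ccl5. Lef1, a transcription factor of such cells, gave 80 of its 139 UMIs and Ccr7, a lymph node homing receptor, 43 of 82 in CD8-positive members. The 5 members with Ccl5 each had at most 2 UMIs of Lef1 and Ccr7 together.

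Members with Cd4 or Cd40lg numbered 8 and had neither CD8 nor Trdc UMIs. Foxp3, the defining transcription factor of regulatory T cells, was at 0, although Ctla4, which such cells share with activated T cells, was found in 26 members and Il2ra in 13. A count of 0 among 65 members allows, by 3 counts per total, up to 4.62% of members with a Foxp3 UMI. Gata3 and Areg occurred together in 6 members, and 4 of these had at most 2 CD3 UMIs. Of the other genes of innate lymphoid cells of group 2, Il1rl1 was found in 4 members, Il5 in 2 and Il13 in 0. The proliferation gene Mki67 gave 1 UMI.

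**Figure D2:**
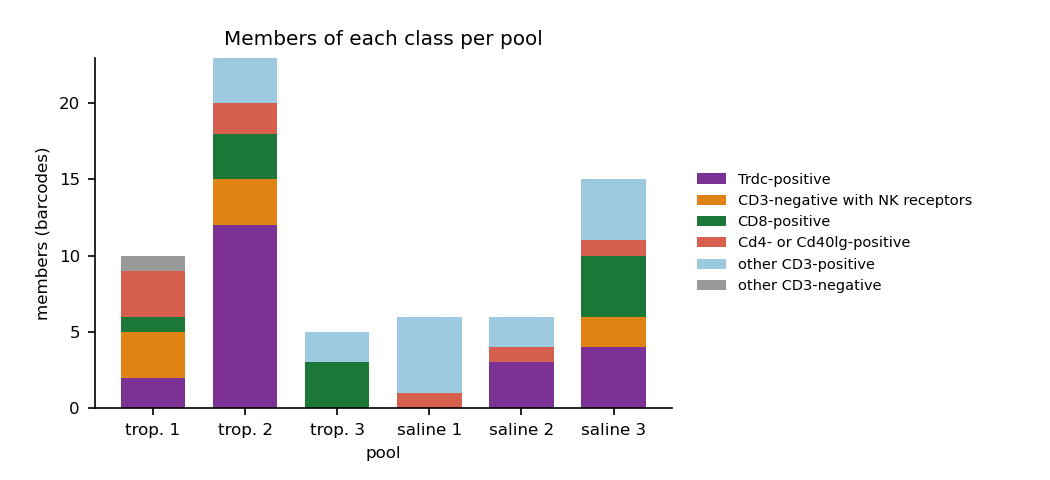
Members of each class (stacked bars, barcodes) in each of the 6 pools. Tropicamide pool 2 holds 12 of the 21 Trdc-positive members, and no class except the CD3-positive remainder and the small Cd4- or Cd40lg-positive class appears in saline pool 1.

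The receptors that tropicamide blocks were barely detected in these cells. Chrm1, Chrm4 and Chrm5 gave 0 UMIs among 379599, Chrm3 1 and Chrm2 2, all 3 in tropicamide pool 2. Chat, which encodes the enzyme that makes acetylcholine, Ache, which encodes the one that breaks it down, and the nicotinic receptor gene Chrna7 were at 0. At this depth a difference between the groups was not detectable for any of them.

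The share of T and NK lymphocytes did not separate the groups. The members numbered 10, 23 and 5 in the pools given tropicamide, against 6, 6 and 15 in those given saline. Their share of kept barcodes was 0.106%, 0.171% and 0.0397% with tropicamide and 0.0637%, 0.0576% and 0.140% with saline. The exact (Clopper-Pearson) 95% interval of the lowest was 0.0129% to 0.0927% and of the highest 0.108% to 0.257%, which covers counting error only. The means were 0.106% ± 0.0657 and 0.0870% ± 0.0457 (SD, n = 3 pools each), a ratio of 1.21, with a two-sided exact permutation p of 0.9. The pools of the 2 groups overlapped, and without tropicamide pool 2 the direction turned.

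Among immune barcodes the order was the other way. T and NK members made up 25%, 31.9% and 17.9% of the T and NK, macrophage and B cell barcodes of the tropicamide pools and 42.9%, 42.9% and 39.5% of those of the saline pools. The means were 24.9% ± 7.04 and 41.7% ± 1.95 (SD, n = 3 each), the groups did not overlap, and the exact permutation p of 0.1 is the smallest that 3 against 3 pools can give. Macrophage barcodes, which are part of this denominator, moved the opposite way. They numbered 21, 37 and 20 with tropicamide and 5, 7 and 17 with saline. As a share of kept barcodes they were 0.219% ± 0.0582 and 0.0929% ± 0.0571 (exact permutation p = 0.1). The lowest tropicamide pool, at 0.1590%, lay just above the highest saline pool, at 0.1584%. For each macrophage there were 0.449 ± 0.187 members with tropicamide and 0.980 ± 0.191 with saline (exact permutation p = 0.1). These comparisons share the macrophage counts and are not separate results.

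**Figure D3:**
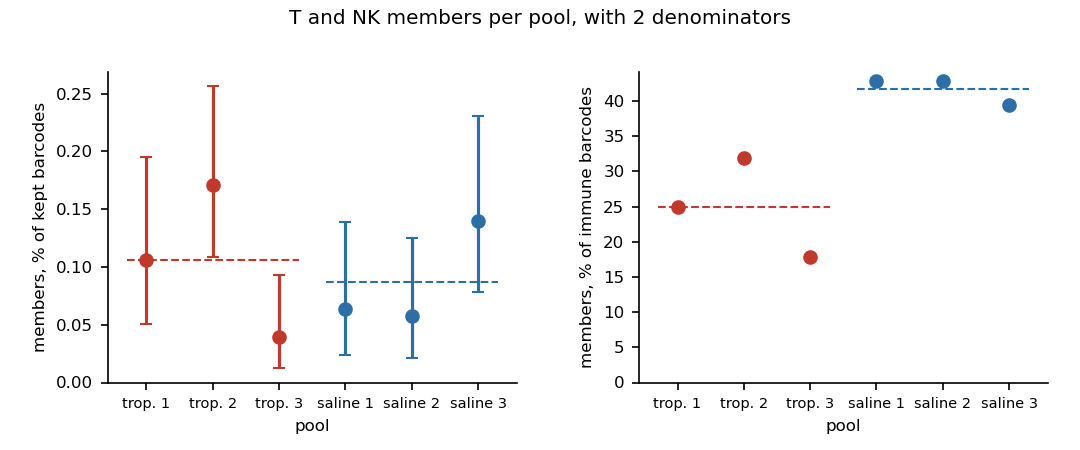
Members as a percentage of kept barcodes (left, with exact 95% intervals) and of immune barcodes (right) in each pool, with dashed lines at the group means. The pools overlap on the left, and on the right the tropicamide pools lie at 17.9% to 31.9% and the saline pools at 39.5% to 42.9%.

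The makeup of the members was compared by the share with a UMI of each of 5 marker groups, computed for each member thinned to 500 UMIs. For the gamma delta genes (Trdc, Trgc1, Trgc2 and Trgc4), the share was 14.5%, 39.6% and 3.53% with tropicamide and 2.57%, 47.0% and 20.8% with saline. For the NK receptors it was 25.3%, 27.6% and 26.8% against 26.5%, 8.22% and 23.1%. For CD8 it was 3.10%, 2.63% and 13.9% against 0%, 0% and 5.77%. The groups overlapped in these, and in the CD4 and regulatory groups, with exact permutation p values of 0.2 to 0.8 and an adjusted p of 0.8 for all 5. In macrophage-gated barcodes, which should lack these genes, the unthinned shares were 0.935% to 3.74% at a median of 5144 UMIs, against 12.3% to 61.5% of the members.

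No gene passed the test between tropicamide and saline. Counts were summed over the members of each pool, and 769 genes passed the filter on low counts, which held 57.9% of the UMIs of the members. With the quasi-likelihood test of edgeR, 0 of 769 genes (0%) had a Benjamini-Hochberg adjusted p under 0.05, and 17 (2.21%) had an unadjusted p under 0.05. DESeq2 called 0 as well, with 10 at an unadjusted p under 0.05. The groups did not overlap for 52 genes (6.76%), of which 25 (3.25%) were higher and 27 (3.51%) lower with tropicamide. In simulated data of the same depth, edgeR recovered 26% of 2-fold changes and 90% of 4-fold changes, so that most 2-fold changes would be missed.

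The 6 genes of smallest p were Arap2, Smyd3, Adk, Rab10, Jarid2 and Zfp36, all at an edgeR adjusted p of 0.998. Arap2, a regulator of small GTPases, was at 2.62, 4.55 and 1.82 UMIs per 10000 member UMIs with tropicamide and 11.9, 9.45 and 6.63 with saline. The pools did not overlap, and the log2 fold change was -1.47 ± 0.44 (SE; unadjusted p = 0.00698, edgeR). Zfp36, which encodes a protein that destabilises cytokine mRNA, was at 1.75, 1.57 and 0.726 against 2.19, 6.70 and 3.26, a log2 fold change of -1.34. Jarid2, a subunit of the Polycomb repressive complex PRC2, was the one with the higher level after tropicamide, at 5.09, 3.06 and 2.18 against 1.88, 1.58 and 1.09. Smyd3, Adk (adenosine kinase) and Rab10 had log2 fold changes of -1.83, -1.44 and -1.29, and their pools did not overlap.

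Gzma differed most in fitted level, but it is a selecting gene, so its levels are given as a description. They were 18.04, 12.5 and 37.0 UMIs per 10000 with tropicamide and 0, 0 and 8.59 with saline, and the groups did not overlap. These levels rest on few members, as Gzma was found in 3, 5 and 1 members of the tropicamide pools and 0, 0 and 2 of the saline pools. Of its 472 UMIs, 330 lay in the CD3-negative class with NK receptors, which was itself absent from saline pools 1 and 2 and from tropicamide pool 3. More such cells and more Gzma per cell cannot be told apart in the sums. Single members with Gzma held 5 to 102 UMIs of it in the tropicamide pools, and 20 and 59 in saline pool 3. The 102 UMIs, in 1 CD8-positive member, were all the Gzma of tropicamide pool 3. A difference in level per cell was not tested. Without a filter on low counts, edgeR called 5 of 13481 genes, namely Calca, Myo1e, Ccl4, Cd55 and the selecting gene Gzma. Cd55 was lower with tropicamide, with 4 UMIs against 38 with saline. Calca (60 against 2), Myo1e (116 against 11), Ccl4 (75 against 6) and Gzma (393 against 79) were higher. The UMIs of Calca lay in 4 members and those of Ccl4 in 6.

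**Figure D4:**
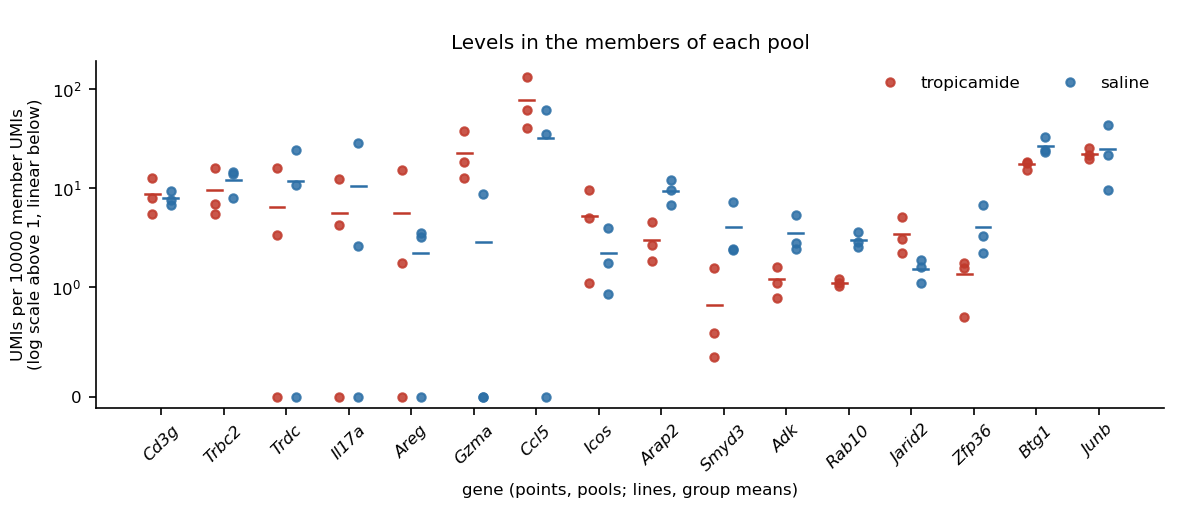
Level of 16 genes in the members of each pool, in UMIs per 10000 member UMIs on a scale that is logarithmic above 1, with lines at the group means. Gzma and Jarid2 lie higher in all 3 tropicamide pools, Arap2, Smyd3, Adk, Rab10, Zfp36 and Btg1 lower, and the levels of Trdc, Il17a and Ccl5 overlap.

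Apart from the selecting genes Gzma and Nkg7, 2 genes of the cytotoxic list (of 16) were tested, Ccl5 and Srgn, and 0 were called. Over all 769 genes the median log2 fold change was 0.03, with 408 above 0. Ccl5 was at 60.5, 40.4 and 130 UMIs per 10000 with tropicamide and 61.0, 0 and 34.8 with saline, and the groups overlapped (log2 fold change 1.29, adjusted p = 0.998, edgeR). Srgn, which encodes the granule proteoglycan serglycin, differed by 0.01 on the log2 scale. In the naive and recirculating list, 6 of 9 genes were tested, 6 were below 0, 0 were called and the median was -0.54, or -0.69 without the selecting gene Il7r. With a pool left out, the median of the tested genes ranged from -1.15 (without tropicamide pool 3) to -0.36 (without tropicamide pool 2). It was -0.95 without saline pool 2. The number of list genes tested changed between these fits, from 7 without tropicamide pool 3 to 5 without tropicamide pool 2. Ccr7 was at 1.31, 0.522 and 3.63 with tropicamide and 3.75, 1.58 and 4.35 with saline, and Tcf7, a transcription factor of naive T cells, at 0.873, 0.746 and 2.54 against 3.75, 1.97 and 2.17. Both overlapped between the groups (log2 fold changes -1.23 and -1.12, adjusted p = 0.998, edgeR), as did Klf2 and Satb1.

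Of the 7 genes of the T cell receptor and CD3 list, 5 are selecting genes. The other 2, Cd247 and Trbc1, were both below 0 and were not called. Of 3 tested gamma delta genes (of 12), Trdc was at 3.35, 15.7 and 0 UMIs per 10000 with tropicamide and 0, 24.0 and 10.8 with saline. Il17a was at 4.22, 12.4 and 0 against 0, 28.4 and 2.61. The log2 fold changes of Trdc and Il17a were -0.68 and -0.64. Scart1 lay on the other side of 0, with 3.06, 4.25 and 0 against 0, 4.33 and 0.435 and a log2 fold change of 1.27, and 0 of the 3 were called. For all 3, pools of the same group differed more than the group means did, and the pools at 0 were those without a Trdc-positive member. Icos was the 1 tested gene of the helper list, at 4.95, 9.40 and 1.09 against 0.938, 3.94 and 1.74 (log2 fold change 1.47 ± 0.68 SE, adjusted p = 0.998, edgeR). For Areg the values were 1.75, 14.9 and 0 against 0, 3.15 and 3.48. Of the 2 CD8 genes, 17 interferon response genes and 14 amino acid stress genes, none passed the filter on low counts.

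Of the 22 AP-1 and immediate early genes, 14 were tested, with 4 above and 10 below 0, a median of -0.08 and 0 called. Fos was at 5.53, 9.77 and 2.54 UMIs per 10000 with tropicamide and 1.25, 40.2 and 12.9 with saline, and Jun at 1.89, 3.73 and 1.45 against 0.313, 30.7 and 4.46. Saline pool 2 was the highest and saline pool 1 the lowest of the 6 for both. Jund, another AP-1 gene, was at 16.01, 16.3 and 19.6 against 16.3, 37.4 and 15.4. Btg1, an antiproliferative gene, and Zfp36 were lower without overlap. Btg2, a relative of Btg1, was higher without overlap at 6.11, 3.21 and 3.27 against 1.88, 3.15 and 2.83, by a narrow gap. Thus 1 of the 14 tested genes was higher and 2 were lower without overlap. Over all genes tested, the groups did not overlap for 52 of 769 (6.76%) in both directions together.

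The remaining lists held no call either. Of the 86 cytosolic ribosomal protein genes 78 were tested, with 25 above and 53 below 0 and a median of -0.08. Rps24 was the most abundant of them, at 70.3, 44.3 and 101 UMIs per 10000 with tropicamide and 84.8, 76.4 and 72.9 with saline. Of 13 mitochondrially encoded genes 10 were tested, with a median of -0.09, and mt-Atp6 had a log2 fold change of 0.02. Of 10 class I histocompatibility genes 4 were tested, all 4 above 0 with a median of 0.34. The most abundant, H2-K1, H2-D1 and B2m, had log2 fold changes of 0.22, 0.29 and 0.40. Median changes were 0.11 for the heat shock list (4 tested), -0.13 for the glucocorticoid response list (5 tested besides Il7r) and 0.07 for the NF-kB list (5 tested). Nr3c1, the glucocorticoid receptor, was at 15.9, 8.80 and 2.54 against 0.938, 9.45 and 3.70, and the groups overlapped.

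The change in T and NK lymphocytes was set against that in macrophages with limma, in one model over both classes. The difference passed the test for 4 of 2369 genes (0.169%), S100a10, Ahnak, Vim and Crip1, which encode an annexin partner, a large scaffold protein, the filament protein vimentin and a zinc-binding LIM protein. In the T and NK members, S100a10 was at 4.95, 7.61 and 6.90 UMIs per 10000 with tropicamide and 5.005, 8.67 and 4.57 with saline. In macrophage barcodes it was at 5.64, 6.58 and 4.96 against 0, 0.258 and 0.196. The levels thus overlapped between the groups in the lymphocytes and not in the macrophages.

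For S100a10 the difference of the 2 log2 fold changes was -4.09 (adjusted p = 0.0160, limma), for Ahnak -4.10 (0.0260), for Vim -4.26 (0.0342) and for Crip1 -4.12 (0.0342). In the T and NK members alone, the log2 fold changes of these genes were 0.18, 0.44, 0.34 and 0.12, and in the macrophages 4.86, 4.65, 3.72 and 4.38. The saline side of the macrophages rests on 5, 7 and 17 barcodes, and in saline pool 1 these had a median of 1130 UMIs, against 4521 to 8634.5 in the other 5 pools. Calls fell to 0 when tropicamide pool 1 or 2, or saline pool 2 or 3, was left out, to 1 without saline pool 1, and were 5 without tropicamide pool 3.

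**Figure D5:**
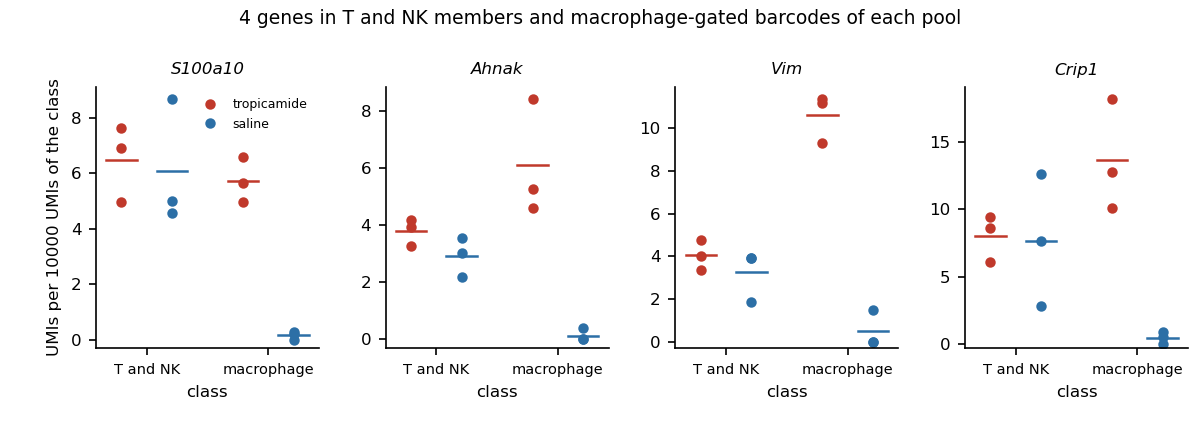
Levels of S100a10, Ahnak, Vim and Crip1 in T and NK members and in macrophage-gated barcodes of each pool, in UMIs per 10000 UMIs of the class, with lines at the means. The T and NK values of the groups overlap for all 4 genes, with Crip1 the most spread (2.82 to 12.6), and the saline macrophage values are 0 to 1.47.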

How the data were processed

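The deposited matrices hold counts, the UMIs of each gene in each barcode, and per the file headers the authors used Cell Ranger 8.0.1. STAR and GRCm39 come from the submitters' processing notes. The labels' extraction protocol, which concerns bone, was set aside. Nothing in the labels says that pools came from separate experiments, so p values measure the spread between these pools. Each pool held 30761887 to 49477707 UMIs.

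Barcodes needed at least 500 UMIs, 300 genes and at most 20% mitochondrial UMIs, which 66018 of 66434 met. No doublet caller was run and free RNA was not removed, and the limits on Cd79a, C1q genes and Dcn remove mixtures with those cells only. Macrophage-gated barcodes had at least 3 UMIs of at least 2 C1q genes, and both they and B cell barcodes at most 1 UMI of the 8 selecting genes. The members, classes and 23 gene lists were chosen with earlier results of these data known.

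Counts of members were summed per pool and tested with edgeR 4.0.16 (quasi-likelihood, TMM, filterByExpr, Benjamini-Hochberg over all genes tested). Levels are UMIs per 10000 member UMIs. The difference between classes used limma 3.58.1 with the pool as a block. Shares were compared with a two-sided exact permutation test over 20 arrangements of logit shares, or of percentages for the marker groups. Thinned shares are the exact expectation. DESeq2 1.42.0 was an alternative, with R 4.3.3, Python 3.11.15 and scipy 1.17.1. On simulated data of 769 genes, 50 of them changed, limma recovered 12% of 2-fold and 52% of 4-fold differences between classes. Named genes are the 8 selecting genes, the 6 of smallest p (no gene passed), the 3 highest of each list where described, and Chrm1 to Chrm5, without clone-like names. Other genes were chosen after their values were seen. Some genes that the rule picks are left out of the text.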

Additional observations from a re-analysis of the deposited data

Results flagged for a closer look

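The change after tropicamide differed between T and NK lymphocytes and macrophages for 4 genes, by the test of the difference itself (limma, Benjamini-Hochberg over 2369 genes). On the log2 scale, the change in the lymphocytes minus that in the macrophages was -4.09 for S100a10, -4.10 for Ahnak, -4.26 for Vim and -4.12 for Crip1. In the lymphocytes, Ahnak was at 3.93, 4.18 and 3.27 UMIs per 10000 with tropicamide and 2.19, 3.55 and 3.04 with saline. In the macrophages it was at 5.28, 8.43 and 4.60 against 0, 0 and 0.392. The macrophage-gated barcodes numbered 21, 37 and 20 with tropicamide and 5, 7 and 17 with saline, and their median UMIs were 4974, 4521 and 8634.5 against 1130, 5758 and 6322. In the macrophage sums alone, 15 of 2104 tested genes had an adjusted p under 0.05 (edgeR). Fitted log2 changes within the macrophages are given without their p values for other genes of myeloid cells, chosen after their values were seen. They were 9.08 for S100a4, 4.43 for S100a6, 4.35 for Lgals3, 3.07 for Retnla, 1.91 for H2-Aa, -1.33 for Cst3, -1.18 for Cd81 and -1.19 for Cd9. For none of these 8 did the difference from the lymphocytes pass the test (adjusted p = 0.101 to 0.684, limma). In the saline macrophages S100a4 was at 0 in all 3 pools. Lgals3 was at 0, 0 and 0.294 UMIs per 10000 there, and Retnla at 0, 0 and 2.45. The sizes of these 3 changes thus rest on saline pools at or near 0. The part of barcode number, depth and macrophage makeup in the result was not tested.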

How the results depend on the processing

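The log2 ratio of the group mean shares among kept barcodes was 0.28 and stayed between 0.25 and 0.42 under 7 other gates, filters and limits. The permutation test of the share used logit shares and not this ratio. It turned to -0.74 with immune barcodes as the denominator and ranged from -0.26 (without tropicamide pool 2) to 0.80 (without saline pool 3) when a pool was left out. For thinned marker shares (tropicamide minus saline, in percentage points), unthinned counts turned CD4 to -0.43, gamma delta to 2.51 and the regulatory group to 7.63. With a pool left out, CD4 ranged from -0.22 to 3.08, gamma delta from -14.7 to 7.51 (3.55 without tropicamide pool 3), the regulatory group from -5.50 to 1.41, CD8 from 0.943 to 6.58 and NK receptors from 1.76 to 10.9. The count of changed genes moved from 0 to 5 without the low-count filter, to 1 with CD3- or receptor-positive members only, and between 0 and 1 with a pool left out (1 without saline pool 3). The single gene was Gzma in both cases, a selecting gene with 0 UMIs on the saline side of both fits. The count was 0 under the other 7 settings run, also without the Trdc-positive members or the member with endothelial UMIs, both chosen after seeing the data. Calls against macrophages numbered 3 with edgeR and no pool block, and 0 to 5 with a pool left out. In that edgeR fit Vim did not pass (adjusted p = 0.169). Samples with the same replicate number did not deviate together (correlations -0.20, 0.29 and -0.21 over 1053 genes), so the numbers do not pair the pools. Samples of unlike number gave -0.43 to 0.41. Over all kept barcodes and 14558 genes, the same number gave -0.07, -0.37 and -0.74. Unlike numbers gave -0.64 to 0.72 there, the highest for tropicamide pool 3 with saline pool 2. With the replicate block, 0 genes changed (14 at an unadjusted p under 0.05), 3 differed from macrophages, and the exact permutation p of the share, over 8 arrangements, was 1. Under this block, too, Vim did not pass against macrophages (adjusted p = 0.0796, limma). These results rest on 65 members, 5 to 23 per pool, and on 3 pools per group.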
